A study of Mus musculus with 43 samples.

Results

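The 9 genes described here, Cx3cr1, P2ry12, P2ry13, Tmem119, Sall1, Siglech, Gpr34, Olfml3 and Aif1, mark microglia in their homeostatic state, the state they hold in the undisturbed brain. They were chosen by name and are 9 of the 55416 genes counted, and all 9 passed the filter on low counts in all 4 cell types. Their counts were followed in 43 RNA-seq libraries of microglia, oligodendrocyte precursor cells (OPCs), oligodendrocytes and astrocytes, each from the cortex of 1 mouse aged 3 months. Mice of the Rag2-/- genotype lack the recombinase that assembles antigen receptors and so have no mature T or B lymphocytes, and the question put to the cells was whether glia depend on lymphocytes. The immunocompetent controls were littermates, Rag2+/- in pairs 1, 2, 3 and 5 and Rag2+/+ in pairs 4 and 6, all of them untreated. The Rag2 deletion is present in every cell of the body, so the libraries cannot separate the absence of lymphocytes from a loss of Rag2 in the glia themselves. Counts of Iftap, a gene that overlaps Rag2, were also nearly lost in Rag2-/- libraries of all 4 cell types. The genotype contrast is thus also a contrast of Iftap, and these cannot be told apart. Microglia and astrocytes came from 6 control and 6 Rag2-/- mice, OPCs from 6 and 5, and oligodendrocytes from 4 and 4.

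Microglia are the resident macrophages of the brain parenchyma. Signals from the surrounding tissue, transforming growth factor β among them, keep up a gene program that separates them from blood-derived macrophages. Part of that program lets the fine processes of the cells sense neurons: Cx3cr1 encodes the receptor for the neuronal chemokine fractalkine, and P2ry12 and P2ry13 encode receptors for ADP, which draws processes to sites of damage. Sall1 encodes a zinc finger transcription factor that holds microglia in this state. Levels of many of these genes fall when microglia are activated, so their counts are widely read as a measure of the resting state.

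The members lie on 7 chromosomes of GRCm39. Cx3cr1 lies on chr9:119877749-119898945, P2ry12 on chr3:59123682-59170429, P2ry13 on chr3:59114539-59118304 and Olfml3 on chr3:103629538-103645322. Tmem119 lies on chr5:113931781-113938577, Sall1 on chr8:89753863-89770823, Siglech on chr7:55417926-55429195, Gpr34 on chrX:13489625-13507116 and Aif1 on chr17:35387384-35395053. P2ry12 and P2ry13 sit inside Med12l, and Gpr34 inside Cask, each on the opposite strand. Exons of Med12l cover 9.17% of the exonic bases of P2ry12 and exons of Gm17705 cover 16.6% of those of Aif1. The strand setting of the counting is not given in the sources used here, so reads in these overlaps cannot be told apart.

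RefSeq promoter windows (GRCm38.p6, 250 bases before the start site to 50 after it) were at hand for 7 of the 9 members, all but Tmem119 and Gpr34. A selection is shown because Sall1, whose level outside microglia differed from that of the other members as described below, also had the windows richest in the dinucleotide CG, which is set in capitals. A link between CG and level was not tested. The Sall1 window with the most CG is chr8:89042813-89043112, and the others are P2ry12 at chr3:59262936-59263235, Siglech at chr7:55767934-55768233 and Cx3cr1 at chr9:120068247-120068546. Siglech is on the plus strand and the other genes are on the minus strand.
Sall1: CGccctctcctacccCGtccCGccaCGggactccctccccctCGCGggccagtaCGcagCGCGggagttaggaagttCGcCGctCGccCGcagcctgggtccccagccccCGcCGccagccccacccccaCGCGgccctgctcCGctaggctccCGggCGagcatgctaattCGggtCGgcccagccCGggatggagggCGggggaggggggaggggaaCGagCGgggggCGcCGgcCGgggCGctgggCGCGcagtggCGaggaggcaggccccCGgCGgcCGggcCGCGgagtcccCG
P2ry12: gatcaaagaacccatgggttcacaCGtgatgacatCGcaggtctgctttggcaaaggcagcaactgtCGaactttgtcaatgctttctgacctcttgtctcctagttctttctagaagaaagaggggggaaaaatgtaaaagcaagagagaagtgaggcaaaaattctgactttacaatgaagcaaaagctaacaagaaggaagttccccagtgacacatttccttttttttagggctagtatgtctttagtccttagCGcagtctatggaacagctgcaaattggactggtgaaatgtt
Siglech: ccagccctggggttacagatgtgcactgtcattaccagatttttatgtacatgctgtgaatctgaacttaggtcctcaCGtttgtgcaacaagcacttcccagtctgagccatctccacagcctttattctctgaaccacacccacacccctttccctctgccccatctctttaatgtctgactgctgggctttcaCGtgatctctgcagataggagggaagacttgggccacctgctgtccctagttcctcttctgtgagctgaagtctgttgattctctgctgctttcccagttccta
Cx3cr1: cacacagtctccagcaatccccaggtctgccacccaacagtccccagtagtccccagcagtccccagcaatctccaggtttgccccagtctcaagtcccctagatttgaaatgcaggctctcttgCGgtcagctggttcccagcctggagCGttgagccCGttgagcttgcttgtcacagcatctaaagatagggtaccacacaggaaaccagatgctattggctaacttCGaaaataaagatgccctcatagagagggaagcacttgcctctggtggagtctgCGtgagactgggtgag
The Sall1 window held 39 CG, a number that 4.45% of 32817 promoter windows of this length reached or passed. The other Sall1 windows held 18 and 27 CG, numbers that 29.7% and 15.5% of windows reached or passed. The other members' windows held 1 CG (Aif1) to 8 CG (Olfml3), where the median over all windows was 7. The letters GAGGAA, a core that the myeloid factor PU.1 can bind, were searched on both strands. They were found in 3 of the 9 windows of the members, 1 each of P2ry13, Siglech and Aif1, and in 28.3% of all windows.

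Microglia libraries held 6499417 to 13709286 counts on genes, and the deepest of the 43 libraries, an OPC library, held 23118497. Rag2 counts were 0 in every Rag2-/- library and reached 4 in the controls, too few to check the labels. Iftap, a gene that spans Rag2 on the opposite strand, had 14 to 131 counts in control microglia and 0 to 1 in Rag2-/- microglia. Markers of each panned cell type were highest in its own libraries: summed over the list, TMM-scaled CPM (counts per 1000000 counts on genes, with library sizes adjusted by edgeR within a cell type) of the 4 OPC markers was 3975 to 6084 in OPCs, that of the 5 oligodendrocyte markers 12491 to 18410 in oligodendrocytes and that of the 5 astrocyte markers 5661 to 7221 in astrocytes. In microglia the same lists reached at most 70.4, 103 and 141. Among the other libraries, the oligodendrocyte markers summed to 2641 to 4796 in astrocytes and the astrocyte markers to 634 to 2155 in OPCs. The 4 neuron markers summed to 268 to 1749 in oligodendrocytes. The sums are scaled within a cell type and are not on 1 scale between types. The part of other cells in the members' levels was not tested. CD45, the antigen used to pan microglia, is also found on other cells, peripheral macrophages among them. The 7 markers of macrophages at the brain's borders summed to 415 to 1015 in control and 480 to 871 in Rag2-/- microglia. A single microglia library stood apart. The immunocompetent replicate 1 was the shallowest of the 43 and had the highest mitochondrial share of the 12 microglia libraries, 11.7% where the lowest had 6.75%. The members' spread, their differences by genotype and sex, the gene lists tested in microglia and the correlations are therefore also given without it.

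Per kilobase of exon, P2ry12 was the most abundant member in microglia, with 306 CPM of total gene counts, the rank of 48 among 21627 protein-coding genes. Tmem119 followed with 175, Cx3cr1 with 173, P2ry13 with 116, Olfml3 with 115 and Siglech with 101. Aif1 had 52.1, Gpr34 39.1 and Sall1, the transcription factor, 31.7, at rank 677.

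None of the receptor genes passed the test by genotype in microglia, and Cx3cr1 was the member with the smallest p. TMM-scaled CPM of Cx3cr1 had a lowest, median and highest value of 639, 755 and 806 in the 6 control libraries and of 729, 872 and 963 in the 6 Rag2-/- libraries. Of the Rag2-/- libraries, 4 lay above every control and the other two lay within the control range. The fitted log2 fold change was 0.21 (95% interval 0.01 to 0.42) with an unadjusted p of 0.0414 and an edgeR adjusted p of 1.00 over 15003 genes, so the difference did not pass the test. P2ry12 ran from 798 through a median of 957 to 1244 in controls and from 870 through 987 to 1105 in Rag2-/- microglia. P2ry13 ran from 316 through 385 to 417 and from 279 through 395 to 502. The Rag2-/- values of P2ry13 spread to both sides of the controls, and those of P2ry12 lay wholly within them. The log2 fold change was 0.03 (-0.21 to 0.26) for P2ry12 and 0.03 (-0.25 to 0.31) for P2ry13. Gpr34, an X-linked gene for a receptor of lysophosphatidylserine, ran from 76.5 through 105 to 260 in controls and from 99.2 through 110 to 128 in Rag2-/- microglia. Its Rag2-/- values lay within the control range, and its log2 fold change of -0.23 had the widest interval of the 9, -0.66 to 0.20.

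**Figure D1:**
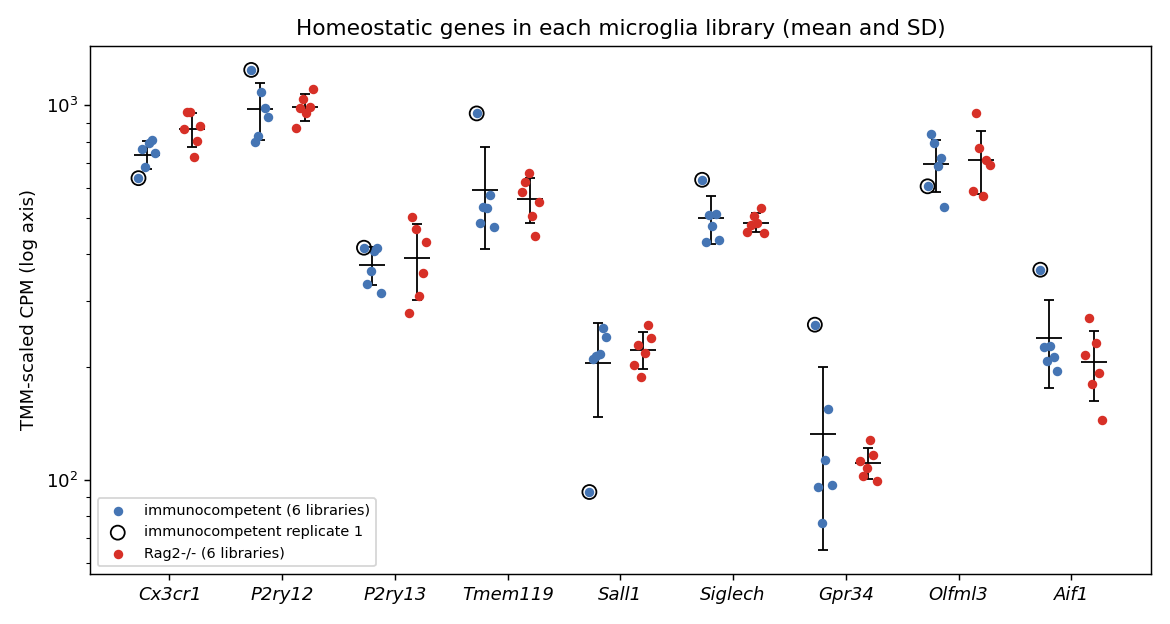
TMM-scaled CPM (log axis) of the 9 genes in each of the 12 microglia libraries, 6 immunocompetent (blue) and 6 Rag2-/- (red), with the mean and SD of each group in black. For every gene the 2 groups overlapped, and the circled immunocompetent replicate 1 lay far from the other controls for Tmem119 (952), Sall1 (92.7), Gpr34 (260) and Aif1 (364).

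Genes of the other surface proteins and of secreted and cytoplasmic proteins also overlapped between the groups. Tmem119, a transmembrane protein used to tell microglia from other macrophages, ran from 473 through 535 to 952 in controls and from 449 through 569 to 662 in Rag2-/- microglia. Siglech, a gene of the Siglec family also known from plasmacytoid dendritic cells, ran from 433 through 493 to 633 and from 457 through 483 to 531. In both genes the highest value of all came from immunocompetent replicate 1, and the Rag2-/- libraries otherwise overlapped with the controls. Olfml3, which encodes a secreted protein with an olfactomedin domain, ran from 536 through 708 to 838 in controls and from 575 through 703 to 952 in Rag2-/- microglia. Aif1, which encodes the calcium-binding protein Iba1, ran from 196 through 220 to 364 and from 144 through 204 to 270. The Rag2-/- libraries of Aif1 held both values below and values within the control range. The log2 fold changes of these 4 genes were -0.04, -0.03, -0.01 and -0.19, and the interval of each included 0.

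Sall1 ran from 92.7 through 216 to 255 in controls and from 188 through 224 to 259 in Rag2-/- microglia. Its lowest value was again that of immunocompetent replicate 1, which held 508 counts of the gene, and the other control libraries started at 210. The log2 fold change was 0.07, with an interval of -0.25 to 0.40.

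Of the 9 members, 0 passed an adjusted p of 0.05 by genotype in microglia with edgeR, 0 with DESeq2 and 1 (Cx3cr1) an unadjusted p of 0.05. Over all genes, 1 of 15003 was called, Iftap, which is 0.00667%, and 2.89% had an unadjusted p under 0.05. The members' median log2 fold change was -0.01 where that of all genes was 0.00, and 5 of the 9 were negative where 49.8% of all genes were. Within littermate pairs the Rag2-/- library was the higher one in 2 to 4 of 6 pairs for each member. With the pair as a block, 0 of the 9 were called. The intervals, which run from 0.63 to 1.34 times the control level over the 9 members, give the changes these 12 libraries leave room for. In simulated counts of the same libraries, the test called 55 of 100 genes set to a difference of 1 on the log2 scale and 83 of 100 set to a difference of 2. The changed genes were drawn at random from the 15003, of all levels, so these numbers do not describe the 9 members.

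**Figure D2:**
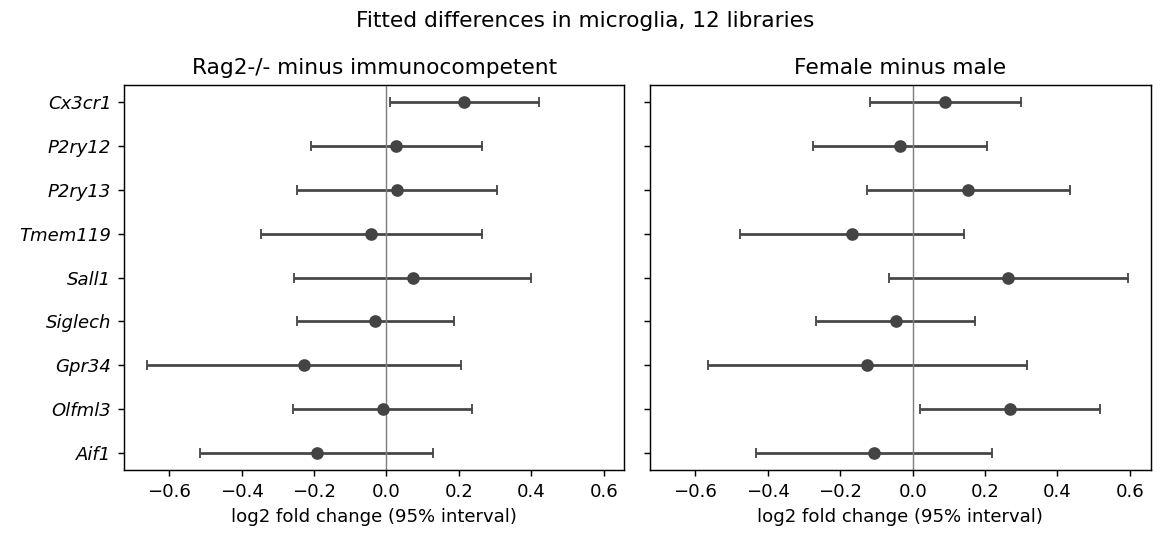
Fitted log2 fold changes in microglia with their 95% intervals (horizontal axis) for the 9 genes, by genotype on the left and by sex on the right. All intervals by genotype include 0 except that of Cx3cr1 (0.01 to 0.42), and all by sex except that of Olfml3 (0.02 to 0.52). Neither gene passed the test after adjustment over 15003 genes.

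The spread between microglia libraries differed from gene to gene. Siglech was the steadiest member, with 493 ± 53.5 TMM-scaled CPM (SD, n = 12) and a coefficient of variation of 10.8%. Cx3cr1, at 803 ± 99.96, and P2ry12, at 984 ± 125, had 12.4% and 12.7%. Olfml3 (707 ± 120) and P2ry13 (383 ± 68.1) had 17.02% and 17.8%, and Sall1 (214 ± 43.5), Tmem119 (578 ± 133) and Aif1 (222 ± 54.3) had 20.3%, 23.03% and 24.4%. Gpr34 varied most, with 122 ± 47.4 and 38.9%. Counting error alone gave 1.03% to 2.99%, and the 1306 genes with a mean at or above that of Gpr34 had a median of 12.9% and quartiles of 10.4% and 15.97%. Siglech, Cx3cr1 and P2ry12 lay below that median and the other 6 members above it, and all 9 varied by more than counting error.

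A large part of that spread was 1 library. Immunocompetent replicate 1 was the highest of the 12 in P2ry12, Tmem119, Siglech, Gpr34 and Aif1 and the lowest in Cx3cr1 and Sall1. Without it the coefficient of variation was 18.4% for Gpr34, 15.5% for Aif1, 12.0% for Tmem119, 9.71% for Sall1 and 6.65% for Siglech, and the median over the members was 12.0% in place of 17.8%. P2ry13, at 18.5%, was then the most variable member. Without this library the log2 fold changes by genotype lay between -0.06 and 0.18. Those of Gpr34 (0.05), Tmem119 (0.11), Siglech (0.04) and Sall1 (-0.05) then had the opposite sign, and that of Cx3cr1 was 0.18. With the other 11 libraries 0 of the 9 members were called by genotype with edgeR and 0 had an unadjusted p under 0.05, Cx3cr1 included. The part of depth and of the mitochondrial share in the values of this library was not tested.

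None of the members passed the test by sex either. The 7 male and 5 female microglia libraries overlapped for each gene, and 0 of the 9 members were called with edgeR or with DESeq2 where 0.0467% of all genes were, 7 of 15003. At an unadjusted p of 0.05, 1 member and 3.89% of all genes passed. That member was Olfml3, which had 784 ± 110 TMM-scaled CPM (SD) in females and 652 ± 100.1 in males. Its log2 fold change was 0.27 (0.02 to 0.52), with an unadjusted p of 0.0358 and an edgeR adjusted p of 1.00. Without immunocompetent replicate 1 it was 0.24, again the 1 member at an unadjusted p of 0.05, and 0 members were called. Gpr34, on the X chromosome, had a log2 fold change of -0.13 (-0.57 to 0.31).

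Genes that work with the members were tested in the same fit. Of 15 ligands, receptors and regulators tied to the members, 14 passed the filter and 0 were called by genotype with edgeR or DESeq2, with 0 at an unadjusted p of 0.05. The log2 fold changes ran from -0.10 for Tgfbr1, a receptor subunit for transforming growth factor β, to 0.33 for Cx3cl1, the fractalkine that Cx3cr1 binds, and the median was 0.04. Csf1r, the receptor that keeps microglia alive, had 0.04, Spi1, which encodes PU.1, 0.04, and Entpd1, the ectoenzyme that breaks down ATP and ADP, 0.01. By sex 0 of the 14 were called, with 1 at an unadjusted p of 0.05. Of 16 further microglia genes 15 were found and tested by genotype, 0 were called by either tool and 0 had an unadjusted p under 0.05. They lay between -0.25 for Itgam, a complement receptor chain, and 0.18 for C1qc, a subunit of complement C1q, with Trem2 at 0.12. Without immunocompetent replicate 1, 0 of the 14 and 0 of the 15 were called by genotype with edgeR, and 0 and 2 had an unadjusted p under 0.05. The highest of the 14 was then Cx3cl1 at 0.41, and Itgam had -0.29.

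Markers of other cells and states were also tested by genotype in microglia. Of the 7 border macrophage markers 0 were called, and 0 of 7 tested genes of the disease-associated state and 0 of 9 dissociation-response genes, whose sums were 795 to 1769 against 872 to 1565 and 4741 to 6601 against 5512 to 8753 TMM-scaled CPM in control and Rag2-/- microglia. None of these had an unadjusted p under 0.05, and DESeq2 called 0. The 8 T and B lymphocyte markers summed to 5.44 to 13.1 in controls and 1.76 to 12.1 in Rag2-/- microglia, with Cd3e at 0 counts in all 6 Rag2-/- libraries. Of these markers 1 passed the filter and 0 were called with edgeR, with 0 at an unadjusted p of 0.05, while DESeq2 on all genes called 1, Cd3e. Without immunocompetent replicate 1, edgeR called 0 genes of these 4 lists by genotype, and 0 had an unadjusted p under 0.05.

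Over the 12 microglia libraries, the genes whose log2 level followed the mean standardised level of the 9 members most closely were Pgls (r = 0.906), Cox4i1 (0.903), Zfp266 (0.893), Rps20 (0.887) and Maf1 (0.880). The most opposed were Dst (-0.901), Fkbp5 (-0.883) and BC005537 (-0.881). These are the extremes of 7887 genes with a mean of at least 10 CPM, and the points share libraries and their depth. The mean of the members was highest in immunocompetent replicate 1, at 0.77. Without that library the 5 genes had r between 0.802 and 0.871 and the 3 opposed genes between -0.876 and -0.807. Their ranks were then 6 to 51 from the top and 8 to 35 from the bottom, so none was still among the 5 or the 3 extremes. Over all 12 libraries the members themselves did not move as 1 group. Of their 36 pairs 15 had a negative r, and Sall1 had -0.87 with Tmem119, -0.72 with Gpr34 and -0.71 with Aif1. Without immunocompetent replicate 1 these became -0.50, 0.32 and -0.12. The r of Cx3cr1 went from -0.12 to 0.72 with Tmem119 and from 0.01 to 0.53 with P2ry12. That of P2ry12 with Aif1 went the other way, from 0.23 to -0.38. The signs of some pairs thus rested on this 1 library, and the number of negative pairs without it is not given here.

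Outside microglia the members were counted at a small share of their microglia level, with 1 exception. As a percent of the mean microglia CPM of total gene counts, the median member had 5.31% in OPCs, 4.21% in oligodendrocytes and 1.41% in astrocytes. Sall1 had 21.7% ± 5.75 (SD, n = 11) in OPCs, 15.02% ± 5.96 (n = 8) in oligodendrocytes and 24.2% ± 4.19 (n = 12) in astrocytes. The other 8 members had 4.13% to 8.10% in OPCs, 3.06% to 5.93% in oligodendrocytes and 0.874% to 2.23% in astrocytes. In astrocytes Cx3cr1 had 0.874%, Tmem119 0.928%, Siglech 1.23% and P2ry12 2.11%. For each of the 9 genes, each library of another cell type lay below each microglia library on this scale. The share of all genes that separate in this way is not given here. Oligodendrocyte libraries were 45.8% to 60.1% mitochondrial, where microglia were at most 11.7%, and this lowers the CPM of every other gene. With mitochondrial genes left out, Sall1 had 27.2%, 29.0% and 33.5% in OPCs, oligodendrocytes and astrocytes, and the other 8 members had 5.14% to 10.1%, 5.81% to 11.4% and 1.22% to 3.13%. On that scale Sall1 overlapped with microglia. In 2 of 8 oligodendrocyte and 3 of 12 astrocyte libraries it lay above immunocompetent microglia replicate 1, which had 88.5 CPM, and reached 103.7 and 98.1. The next lowest microglia library had 206, and the other 8 members did not overlap with microglia in any of the 3 cell types.

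**Figure D3:**
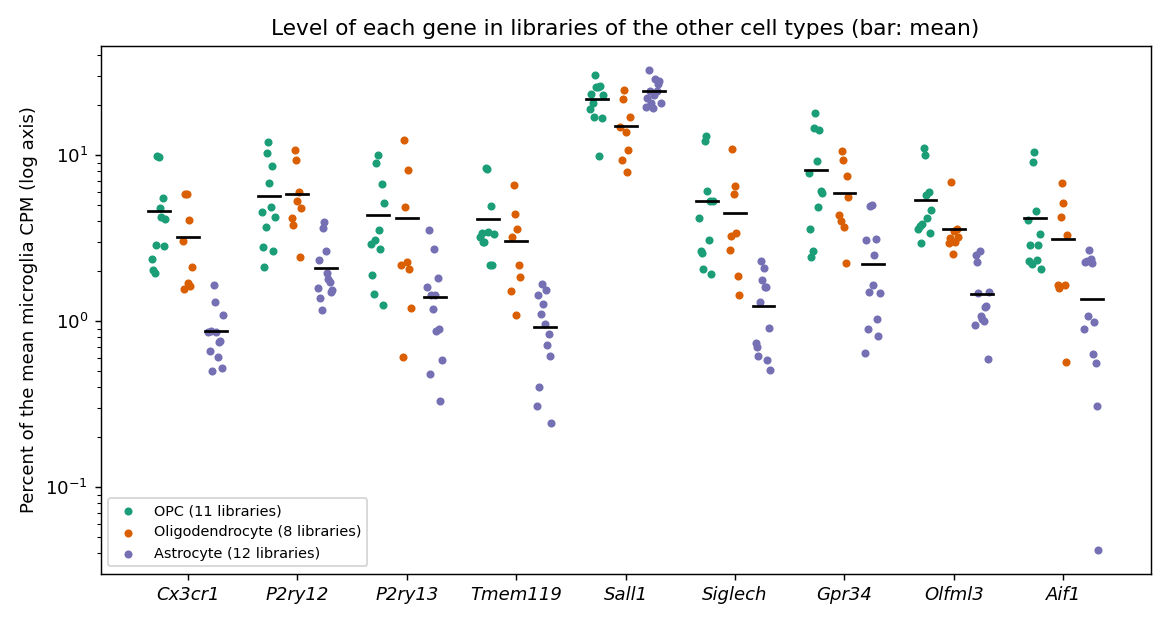
CPM of each gene in every OPC, oligodendrocyte and astrocyte library as a percent of its mean in microglia (log axis), 1 point per library and the mean as a bar. The means of Sall1 lay between 15.02% and 24.2% in the 3 cell types, and those of the other 8 genes between 0.874% and 8.10%. Single libraries lay between 7.88% and 32.6% for Sall1 and reached 17.9% for the other 8 genes (Gpr34 in OPCs).

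In the fit of all 43 libraries, microglia were higher than each other cell type for 9 of 9 members. Cell type goes with the sequencing lane and the panning order, so these cannot be told apart from it. Of 21368 genes tested, 31.2% were called higher in microglia than in OPCs, 34.5% than in oligodendrocytes and 32.6% than in astrocytes. Log2 fold changes over astrocytes ran from 6.53 (5.96 to 7.10) for Cx3cr1 and 6.51 (5.93 to 7.08) for Tmem119 down to 5.20 (4.53 to 5.87) for Gpr34 and 1.74 (1.44 to 2.04) for Sall1. Sall1 also had the lowest log2 fold change over OPCs, 2.35 (2.03 to 2.67), and over oligodendrocytes, 1.89 (1.54 to 2.25), and its interval overlapped with that of no other member in any of the 3 comparisons. Over OPCs the other members lay between 3.88 for Gpr34 and 4.81 for Aif1, and over oligodendrocytes between 3.32 for P2ry12 and 4.31 for Tmem119. Among 7328 genes ranked by the ratio of their microglia CPM to that of the next highest cell type, Tmem119 was at rank 157 with a ratio of 24.2, Aif1 at 170 with 23.8 and Sall1 at 952 with 4.13.

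Sall1 was thus a different part of the 9 genes in each cell type. In microglia it made up 4.81% ± 1.12 of their summed CPM (SD, n = 12), against 19.98% ± 6.57 in OPCs, 16.2% ± 4.68 in oligodendrocytes and 47.6% ± 10.7 in astrocytes. The highest microglia library had 6.08%, and the lowest libraries of the other types had 10.8%, 8.32% and 29.7%. P2ry12, the largest part in microglia with 21.8% ± 1.85, had 20.7% in OPCs, 26.8% in oligodendrocytes and 17.9% in astrocytes, and these ranges overlapped with that of microglia. Cx3cr1 made up 17.9% in microglia and 6.22% in astrocytes, Tmem119 12.7% and 4.52% and Siglech 10.97% and 5.24%. The parts add up to a fixed sum, so a larger part of Sall1 makes every other part smaller. Over the 8 genes other than Sall1, Cx3cr1 made up 18.8% ± 2.31 in microglia and 12.1% ± 3.72 in astrocytes, Tmem119 13.4% ± 1.91 and 8.67% ± 3.69, and Siglech 11.5% ± 0.942 and 10.05% ± 3.83. P2ry12 then made up 22.9% ± 1.93 and 34.1% ± 5.67, and for each of the 8 genes the libraries of each other cell type overlapped with microglia. The makeup is a ratio within a library, so neither the scaling of libraries nor the mitochondrial share enters it.

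**Figure D4:**
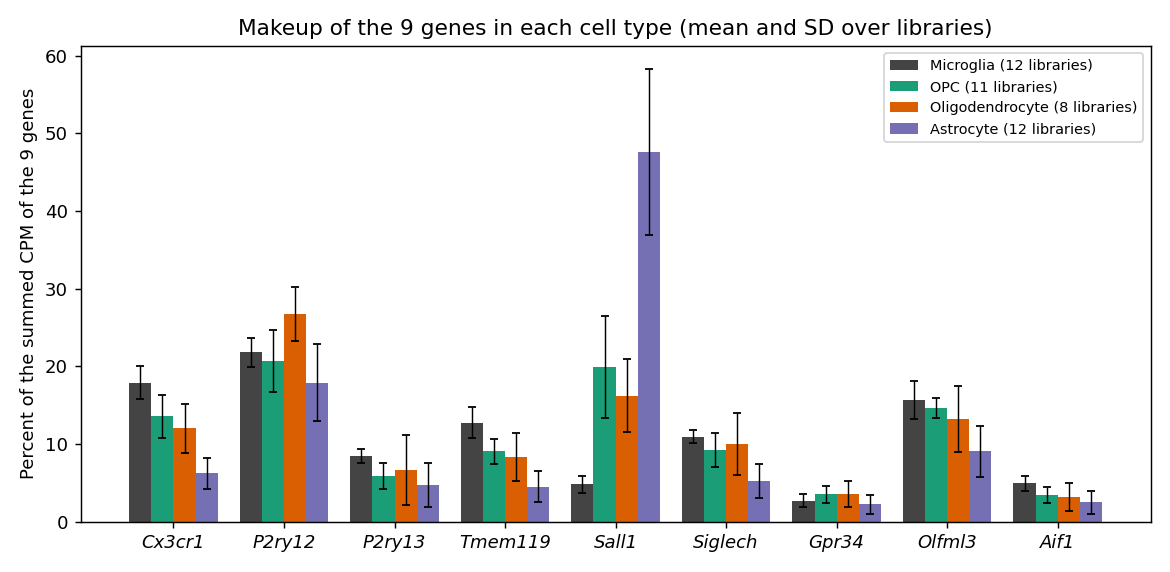
Each gene's percent of the summed CPM of the 9 genes in microglia, OPC, oligodendrocyte and astrocyte libraries, as the mean with the SD over libraries. Sall1 had 4.81% in microglia and 47.6% in astrocytes, and P2ry12 had 17.9% to 26.8%.

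The levels left in the other cell types varied by littermate pair. In OPCs the 8 members other than Sall1 summed to 427 (control) and 466 (Rag2-/-) TMM-scaled CPM in pair 3, where the 9 other OPC libraries lay between 106 and 245 with a median of 152. Both libraries of pair 3 were above all others for each of these 8 genes. For Sall1 they had 64.2 and 56.4, and the control library of pair 4 came between them with 59.0. The further microglia genes were high in the same libraries, with sums of 1555 and 1618 against 485 to 790 in the other OPC libraries. So were the 7 border macrophage markers, with 69.7 and 107 against 9.67 to 57.9, and the part of these cells in the result was not tested. In oligodendrocytes the 8 members summed to 287 and 219 in pair 3 against 113 to 203, and in astrocytes to 101 and 100.1 against 31.6 to 95.7. Both libraries of pair 3 were above all others for 2 members in oligodendrocytes, Cx3cr1 and P2ry12, and for 3 in astrocytes, Cx3cr1, P2ry12 and Gpr34. The border macrophage markers were again high in pair 3, with 87.9 to 102 against 10.7 to 67.7 in oligodendrocytes and 25.03 to 28.7 against 1.42 to 16.9 in astrocytes. In microglia the members' sums of pair 3 were 3994 and 4695, inside the range of the other microglia libraries, 3728 to 5117, while its border macrophage markers were the lowest of the 12, with 415 and 480 against 599 to 1015. These libraries were singled out after their values were seen, and the share of all genes highest in them is not given here. In bulk RNA, more microglia among the panned cells and more of this RNA per cell cannot be told apart. Without pair 3, the median member had 3.73% of its microglia level in OPCs, 3.24% in oligodendrocytes and 1.33% in astrocytes, and Sall1 had 20.1%, 12.2% and 24.9%.

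**Figure D5:**
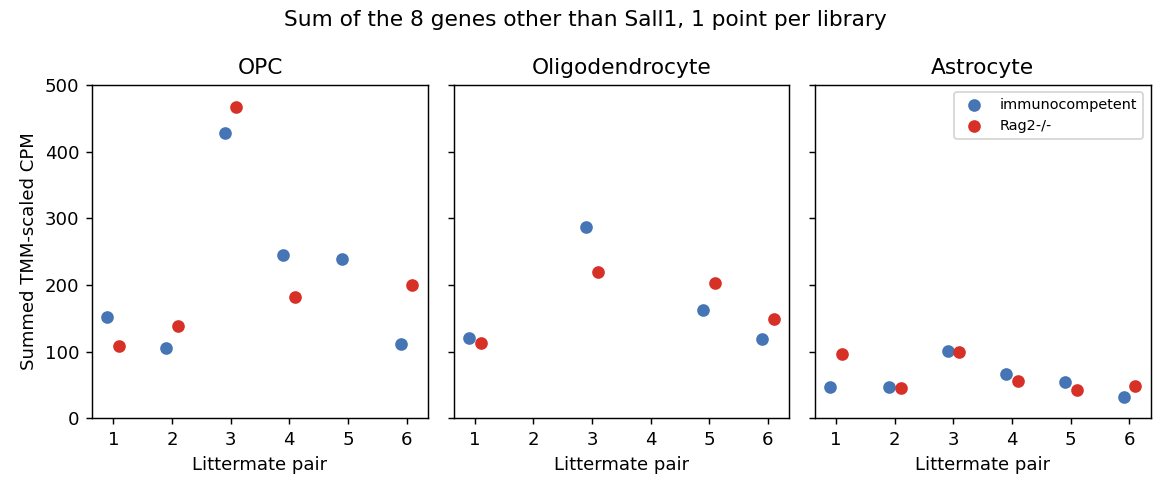
Summed TMM-scaled CPM of the 8 genes other than Sall1 in each OPC, oligodendrocyte and astrocyte library (1 point each, blue for immunocompetent and red for Rag2-/-) by littermate pair. Both OPC libraries of pair 3, at 427 and 466, lay above the other OPC libraries, which reached 245.

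Between the other cell types, 8 members were higher in OPCs than in astrocytes and 8 higher in oligodendrocytes than in astrocytes, where 22.9% and 24.6% of all genes were called higher. Cx3cr1 had log2 fold changes of 1.90 (1.41 to 2.39) and 2.34 (1.82 to 2.86), and P2ry12 of 0.96 (0.51 to 1.41) and 1.97 (1.49 to 2.46). Sall1 went the other way. It was lower in OPCs than in astrocytes, by -0.62 (-0.92 to -0.31) with an edgeR adjusted p of 0.000856, the 1 member among the 18.5% of genes called lower. Its difference of -0.16 (-0.49 to 0.18) between oligodendrocytes and astrocytes did not pass, and 0 members were called lower there, where 25.4% of all genes were. Without pair 3, P2ry13 no longer passed between OPCs and astrocytes, with a log2 fold change of 0.79 in place of 1.14 and an adjusted p of 0.0917.

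The order of OPCs and oligodendrocytes depended on the scale. In the fit, P2ry12 (log2 fold change -1.01, -1.50 to -0.53) and Sall1 (-0.46, -0.79 to -0.12) were lower in OPCs, 2 of 9 members where 15.4% of genes were called lower, and 0 members were called higher where 24.2% of genes were. At an unadjusted p of 0.05, 4 members passed. All 9 were lower in OPCs on the TMM scale and with mitochondrial genes left out, but 8 of the 9 were higher in OPCs in CPM of total gene counts. The median of all genes moved by -0.62 on the log2 scale when mitochondrial genes were left out, and by -0.99 under TMM. Without pair 3, 4 members were called lower, namely Cx3cr1, P2ry12, Siglech and Olfml3, and Sall1 no longer passed, with a log2 fold change of -0.39 and an adjusted p of 0.0953. Sall1 also missed the threshold without Rag2-/- mouse 2, 3, 4 or 6 alone, with log2 fold changes of -0.42 to -0.39 and edgeR adjusted p of 0.0558 to 0.0839.

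The members were also tested by genotype within the other cell types. The standard error was wider than in microglia for 9 of 9 members in OPCs and oligodendrocytes and for 8 in astrocytes, all but Sall1. With edgeR, 0 of 9 members were called in OPCs, where 0.00592% of genes were, 0 of 9 in astrocytes, where 0.00679% were, with Iftap the called gene in both, and 0 of 9 in oligodendrocytes, where 0% were, and 0 had an unadjusted p under 0.05 in any of them. DESeq2 also called 0 of 9 in each. The edgeR fit in oligodendrocytes did not call Iftap either, which had 34 to 77 counts in controls and 0 to 2 in Rag2-/- libraries. That fit thus missed a large difference, so 0 of 9 there cannot be read as no change in the members. Counts differed by gene and cell type, and P2ry12 in OPCs had 156 to 1656 a library. The part of counting in the wider standard errors was not tested. In astrocytes Aif1 had 7 to 56 counts a library in controls and 1 to 61 in Rag2-/- mice, and its log2 fold change of -0.37 had an interval of -1.64 to 0.91. Sall1 in astrocytes had the smallest standard error of these, 0.131, with 42.5 to 65.3 TMM-scaled CPM in control and 43.9 to 62.7 in Rag2-/- astrocytes and a log2 fold change of 0.03 (-0.24 to 0.31). For each member the control and Rag2-/- libraries overlapped in each cell type, and the share of all genes that do so is not given here.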

How the data were processed

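The 9 genes and the other gene lists were chosen with earlier results of these data known. Cells were panned from 1 suspension per mouse in the order microglia, OPCs, oligodendrocytes, astrocytes. The authors amplified the cDNA, sequenced libraries of a cell type on a shared lane, aligned read pairs with STAR 2.7.8a to GRCm39 and counted them with HTSeq on Ensembl genes; the whole-number counts they deposited carry no correction for depth or length. Pairs that HTSeq did not assign to a gene, for any reason, were 33.5% to 52.0% of a library and were left out. Amplified reads are not independent molecules. No 2 libraries of a group agreed within counting error. Gene positions came from GENCODE M39 (54749 of 55416 identifiers matched).

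Genotype and sex were tested in each cell type with edgeR 4.0.16 (R 4.3.3), by quasi-likelihood tests with TMM scaling, filterByExpr (minimum count 10, total 15), the terms sex and genotype and Benjamini-Hochberg adjustment over all genes tested. A joint fit of cell type, genotype and sex compared cell types. It had no term for the mouse, though each mouse gave libraries of more than 1 cell type. The mouse as a block was an alternative. All fold changes are Rag2-/- over control, female over male or the first cell type over the second, and intervals are 95%. The littermate pairs are numbered in the labels. Deviations of pair mates correlated on average by 0.087 in microglia, 0.089 in OPCs, 0.135 in astrocytes and 0.111 in oligodendrocytes, against -0.018, -0.018, -0.026 and -0.036 for other libraries, and the pair was used as a block in an alternative. DESeq2 1.42.0, other scalings and filters, controls of 1 genotype and libraries left out were the other alternatives. The genes named were all 9 members, the list genes a result turned on, and the 5 most alike and 3 most opposed genes by correlation over microglia libraries. The values of some list genes are not reported here. Scripts were tested on simulated data. Leaving out pair 3, the makeup without Sall1, the overlap without mitochondrial genes, and the lists and correlations without immunocompetent microglia replicate 1 were chosen after seeing the data.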

Additional observations from a re-analysis of the deposited data

Results flagged for a closer look

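In groups of 4 to 6 libraries, a library was singled out when its gap to the nearest other was a large part of the group's range (Dixon's 95% value), which chance gives in about 1 of 20 groups. Of 72 combinations of member and group, 11 were singled out, and the libraries share genes, so these are not independent. In control microglia, replicate 1 was the highest for Tmem119 (952 TMM-scaled CPM, the others 473 to 576) and Aif1 (364, the others 196 to 227) and the lowest for Sall1 (92.7, the others 210 to 255).

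In OPCs, replicate 3 was singled out in both groups. Among Rag2-/- OPCs it had 47.4 for Tmem119 (others 14.02 to 20.7), 21.6 for Gpr34 (3.27 to 7.67), 72.1 for Olfml3 (24.04 to 35.7) and 23.2 for Aif1 (4.64 to 5.87). Among control OPCs it had 46.9 for Tmem119 (12.2 to 24.7) and 19.4 for Aif1 (5.54 to 10.7). The remaining cases were P2ry13 in control oligodendrocytes, where replicate 3 had 37.5 and the others 7.89 to 9.17, and Olfml3 in Rag2-/- astrocytes, where replicate 1 had 21.2 and the others 7.10 to 12.1.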

How the results depend on the processing

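Under the alternatives run, 0 of 9 members were called by genotype in any cell type or by sex in microglia, and 9 of 9 stayed higher in microglia than in each other type. Counts over all genes moved. By genotype 1 gene was called in microglia, against 9 without a filter, 3 with a mean count of at least 10, 3 with DESeq2 on all genes and 1 to 2 with 1 library left out. In OPCs 1 became 90 without a filter and 5 and 3 with DESeq2 (all genes, past the filter), in astrocytes 1 became 30 without a filter, and in oligodendrocytes 0 became 14 without a filter and 206 and 13 with DESeq2. By sex 7 became 25 without a filter and 11 and 11 with DESeq2.

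Between OPCs and oligodendrocytes 2 members were called, against 4 with DESeq2 size factors, 4 without a filter, 4 without pair 3 and 1 to 4 with 1 mouse left out. With the mouse as a block Siglech also passed, with a log2 fold change of -0.70 and an edgeR adjusted p of 0.0198. The median share in oligodendrocytes, 4.21%, became 7.10% with TMM over all libraries and 7.89% without mitochondrial genes.

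With the pair as a block beside sex, the microglia genotype log2 fold change of P2ry12 became -0.0107 and that of P2ry13 -0.0453. That of Olfml3 became 0.0315 with the pair in place of sex and 0.0362 with no sex term. By sex the block, which only pair 6 with mice of both sexes informs, gave 0.26 for P2ry12, 0.31 for Tmem119, -0.22 for Sall1, 0.11 for Siglech and 0.20 for Gpr34. The block changed no call of a member by genotype or sex. With 1 library left out, log2 fold changes by genotype ran from -0.0490 to 0.0962 for P2ry12, -0.0865 to 0.123 for P2ry13, -0.100 to 0.114 for Tmem119, -0.0550 to 0.143 for Sall1, -0.0817 to 0.0358 for Siglech, -0.340 to 0.049998 for Gpr34 and -0.0858 to 0.0475 for Olfml3. By sex they ran from -0.0915 to 0.0510 for P2ry12, -0.0846 to 0.0106 for Siglech and -0.257 to 0.0901 for Gpr34. No member was called in any of these, and the causes were not tested. Outside microglia the counts of a member ran from 1 (Aif1 in an astrocyte library) to 1656 (P2ry12 in an OPC library). Median depths were 9381582 to 11686150 counts on genes against 9876304 in microglia.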
